A study of Homo sapiens with 6 samples.

Results

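The genes IER2, IER3, IER5 and IER5L carry the name immediate early response, and their transcripts were followed by RNA sequencing in HCT116-labelled cells. HCT116 is an established line from a human colorectal carcinoma. The 4 genes were chosen by their symbols, with the values of the comparison described here already known, so their own differences between the groups are given as a description and without a test. They are 4 of the 19655 genes of the deposited table, and all 4 were among the 14062 genes that passed the filter on low counts. The groups were 3 libraries of cells transfected with an antisense oligonucleotide against SNORA67, a small nucleolar RNA (labelled as SNORA67 knockdown, ASO), and 3 libraries of control cells (NC). Both groups share the cell line and the culture medium. The sources used here do not give what the control cells received, how many oligonucleotides were used and of which sequence, at what dose, or when cells were harvested.

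Immediate early response genes are switched on within minutes of a growth factor, stress or cytokine signal, from factors already present in the cell and without new protein synthesis. IER2, IER5 and IER5L are related to each other through a conserved stretch at their N terminus, and in human cells their proteins bind the phosphatase PP2A with its B55 subunit. IER5 is known to bring this phosphatase to HSF1, the transcription factor of heat shock genes. IER3, also called IEX-1, shares the name but not this stretch, is a substrate and regulator of ERK signalling, and is a known target of NF-kB that influences cell survival.

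The positions below are those of the deposited table in hg38. IER2 lies on chromosome 19 at 13150411 to 13154911 on the plus strand, and IER3 on chromosome 6 at 30743199 to 30744548 on the minus strand. IER5 lies on chromosome 1 at 181088700 to 181092900 on the plus strand, and IER5L on chromosome 9 at 129175552 to 129178261 on the minus strand. In GENCODE 29 the only transcripts of IER5 and of IER5L have a single exon, while the coding transcripts of IER2 and IER3 have 1 or 2 exons.

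Since all 4 IER genes were higher, promoter windows are shown for those that had one. Of the 4 genes, 3 matched the RefSeq promoter table (build GRCh38.p14), all but IER3, and the 250 bases before the start are printed 5′ to 3′ on the strand of the gene. Capitals mark matches to the motifs searched on both strands. These windows are chr19:13150161-13150410 (plus strand) for IER2, chr1:181088450-181088699 (plus strand) for IER5 and chr9:129178262-129178511 (minus strand) for IER5L.
IER2: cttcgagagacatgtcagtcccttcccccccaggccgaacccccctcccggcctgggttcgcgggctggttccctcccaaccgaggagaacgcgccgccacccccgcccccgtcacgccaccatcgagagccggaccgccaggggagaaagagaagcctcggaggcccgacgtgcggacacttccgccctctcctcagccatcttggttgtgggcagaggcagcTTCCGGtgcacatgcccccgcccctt
IER5: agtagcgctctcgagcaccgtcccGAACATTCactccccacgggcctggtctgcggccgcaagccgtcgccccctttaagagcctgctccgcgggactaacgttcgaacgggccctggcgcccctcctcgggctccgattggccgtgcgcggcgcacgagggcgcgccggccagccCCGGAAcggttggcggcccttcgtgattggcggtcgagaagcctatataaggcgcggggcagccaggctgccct
IER5L: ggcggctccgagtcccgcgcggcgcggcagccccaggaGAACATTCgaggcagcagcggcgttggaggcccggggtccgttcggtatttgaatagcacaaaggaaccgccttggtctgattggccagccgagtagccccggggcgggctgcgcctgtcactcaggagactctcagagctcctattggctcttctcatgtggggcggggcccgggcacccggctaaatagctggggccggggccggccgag

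The letters GAANNTTC, a pair of inverted heat shock units, occurred in IER5 from 226 to 219 bases before the start and in IER5L from 212 to 205 bases before it, in both as GAACATTC. This motif was present in 5.78% of 35114 promoter windows of the same length. The ETS core CCGGAA occurred in IER2, on the opposite strand from 26 to 21 bases before the start, and in IER5 from 74 to 69 bases before it, against 14.5% of all windows. The serum response element known as the CArG box (1.16% of all windows), the NF-kB consensus (5.21%), the cyclic AMP element TGACGTCA (1.65%), the AP-1 site TGANTCA (6.57%) and TATAAA (10.7%) had no match in these 3 windows. Only these set patterns were searched, so variants such as the letters tatataag near the end of the IER5 window were not marked. No marked matches overlapped one another. The motifs were picked with the sequences in view, and a match is a description of letters and not a site.

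Many immediate early transcripts carry AU-rich elements, which mark a messenger for rapid decay and hold the pentamer ATTTA. In the longest annotated 3′ untranslated region (GENCODE 29) IER5 had 10 such pentamers in 3013 bases, IER3 had 6 in 903 bases and IER5L had 3 in 1286 bases. IER2 had 0 in 1050 bases. The 30 bases with the most pentamers in IER5 and in IER3 are shown because they are the densest of the family, with the pentamers in capitals.
IER5: ttcctttATTTATTTATTTATTTAattata
IER3: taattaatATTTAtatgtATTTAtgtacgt

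In IER5 the window holds 4 overlapping pentamers, at bases 2562 to 2591 of the region, and in IER3 it holds 2, at bases 425 to 454. Over the whole table, protein-coding genes at 1 CPM or more (CPM, counts per 1e6 counts of the library) with 3 or more pentamers had a median log2 fold change of -0.15 (ASO over NC, 5662 genes), and those with 0 had 0.06 (3472 genes). These sets also differed in median GC content (43.0% and 58.1%) and in median exon length (6565 and 3503 bases). The part of the pentamers in the difference was not tested.

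Column totals of the deposited estimated counts ran from 49136502 to 54905215 in the ASO libraries and from 50728524 to 53715905 in the NC libraries. The most frequent count above 0 was 4 in every library, so 1 fragment may be worth about 4 counts, and 12 counts, or 3 fragments, were taken as the smallest amount detected. That limit covers counting error only. SNORA67 itself was not analysed here. EIF4A1, the helicase gene whose intron hosts it, stood at 651, 564 and 635 CPM in the ASO libraries and at 1490, 1543 and 1600 CPM in the NC libraries. The defining genes of colon epithelium did not move as 1 group. EPCAM and CDH1 were low in both groups, which goes against the label of a colorectal carcinoma line. The identity of the cells was not tested. EPCAM, an epithelial adhesion gene, averaged 2.93 ± 0.51 CPM in ASO and 4.37 ± 1.13 CPM in NC (SD, n = 3 each), and CDH1 averaged 1.81 ± 0.13 and 1.06 ± 0.23 CPM. KRT8 (1166 ± 181 CPM in ASO, 1360 ± 94.3 CPM in NC), KRT18 (738 ± 79.2 and 712 ± 55.8 CPM) and the mesenchymal gene VIM (1289 ± 106 and 1201 ± 82.2 CPM) were abundant. Of the 13 epithelial markers tested, 3 were higher in ASO (edgeR's quasi-likelihood test, Benjamini-Hochberg adjusted p under 0.05), beside 26.8% of all genes tested. These were named after their values were seen. LGALS4, the galectin-4 gene, had 1021, 752 and 1004 counts in ASO, against 0, 0 and 1 counts in NC. VIL1, a gene for the microvillus protein villin, had 585, 56 and 731 counts in ASO, against 0, 11 and 0 in NC, and KRT19 had 98, 60 and 97 counts in ASO, against 8, 0 and 0 in NC. Their NC values all lie under the limit of 12 counts. Of 18 epithelial markers, 8 lay under 1 CPM on average in ASO and 11 in NC, and their summed level ran from 1719 to 2263 CPM in ASO and from 1990 to 2293 CPM in NC, most of it from KRT8 and KRT18. The summed level of 16 mesenchymal markers ran from 4187 to 4936 CPM in ASO and from 3461 to 3894 CPM in NC. These markers went both ways. Of 14 tested, 4 were higher and 4 lower by edgeR, beside 26.8% higher and 19.1% lower over all genes tested. The summed level of 8 leukocyte and endothelial markers ran from 17.0 to 23.2 CPM in ASO and from 10.3 to 12.1 CPM in NC, and 2 of them were at 0 in every library. The part of these differences in the results below was not tested.

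All 4 IER genes were higher in ASO than in NC, by 2.85-fold to 9.26-fold, and for each of them the lowest ASO library lay above the highest NC library. With all libraries IER3 had the largest fold difference of the 4 and the tightest replicates, and IER2 a similar fold difference with the widest spread. Without ASO replicate 3 the log2 fold changes of IER2 and IER3 were 3.19 and 3.18, so their order turned. IER5 and IER5L differed less. In a mixed extract of many cells, more cells that make a transcript and more of it per cell cannot be told apart.

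IER3 stood at 1478, 1280 and 1458 CPM in the ASO libraries and at 160, 144 and 152 CPM in the NC libraries. The means were 1405 ± 109 and 152 ± 7.94 CPM (SD, n = 3 each), a difference of 9.26-fold, or 3.21 ± 0.09 on the log2 scale (edgeR estimate ± SE). Each ASO library was far above each NC library, with ratios between single libraries of 8.003 to 10.3. By CPM, which is not scaled to transcript length, IER3 was the 50th of all 19655 genes in ASO and the 1391st in NC.

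IER2 stood at 1931, 1559 and 845 CPM in the ASO libraries and at 222, 103 and 246 CPM in the NC libraries. The means were 1445 ± 552 and 190 ± 76.3 CPM, a difference of 7.59-fold, or 2.92 ± 0.40 on the log2 scale (estimate ± SE). The groups did not overlap, although ratios between single libraries ran from 3.44 to 18.7. By CPM, again not scaled to length, IER2 ranked 47th in ASO and 1040th in NC.

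IER5 stood at 74.5, 60.9 and 67.3 CPM in the ASO libraries and at 22.6, 25.7 and 22.8 CPM in the NC libraries. The means of 67.6 ± 6.78 and 23.7 ± 1.72 CPM differed by 2.85-fold, or 1.51 ± 0.12 on the log2 scale. Ratios between single libraries ran from 2.37 to 3.29, and the groups did not overlap.

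IER5L, the paralogue of IER5, stood at 71.6, 52.4 and 73.1 CPM in the ASO libraries and at 20.8, 15.6 and 16.7 CPM in the NC libraries. The means of 65.7 ± 11.6 and 17.7 ± 2.75 CPM differed by 3.71-fold, or 1.89 ± 0.18 on the log2 scale. Replicate 2 was the lowest library of IER5L in both groups, as it was for IER3 and for several of the other primary response genes described below. Ratios between single libraries of IER5L ran from 2.52 to 4.69.

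**Figure D1:**
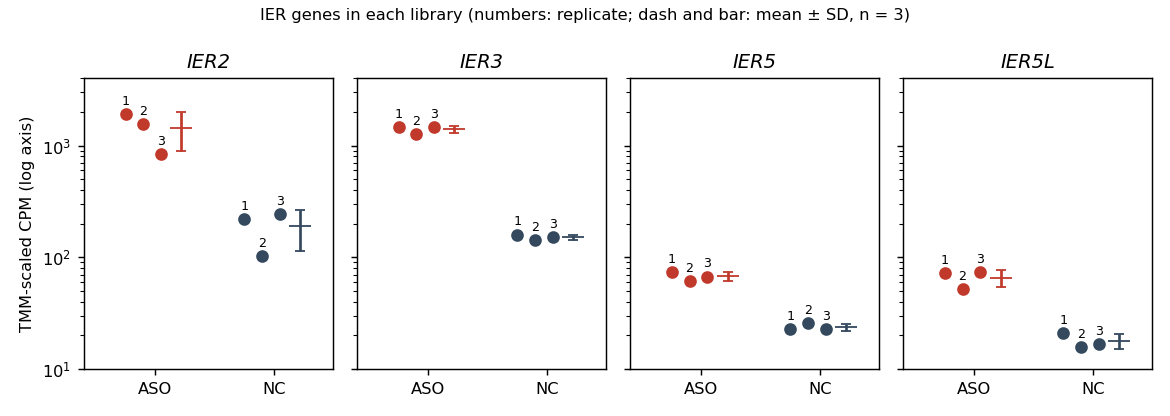
TMM-scaled CPM on a log axis for the 4 IER genes in the 3 ASO and the 3 NC libraries, each point a library with its replicate number, and dash and bar the mean ± SD. In each panel every ASO point lies above every NC point, and IER2 has the widest spread, from 845 to 1931 CPM in ASO and from 103 to 246 CPM in NC.

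Over the whole table, 26.8% of the genes tested were higher in ASO and 19.1% were lower. The lower genes numbered 2692, but 1764 without ASO replicate 3 and 1755 without NC replicate 1. Every ASO library was above every NC library for 4 of 4 IER genes and for 31.6% of all genes tested. Since the family was proposed with these values known, nothing is read from its counts. The median log2 fold change was 2.41 over the 4 IER genes and 0.01 over all genes tested. A larger log2 fold change than that of IER3 was found for 7.39% of genes, than that of IER2 for 8.10%, of IER5L for 12.1% and of IER5 for 14.5%.

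Levels of different genes can be set beside each other only per length of transcript. In CPM per kilobase of exon, IER3 was the highest in both groups, at 1036 ± 80.4 in ASO and 112 ± 5.86 in NC. IER2 followed at 470 ± 180 in ASO and 62.0 ± 24.8 in NC, with its highest library below the lowest of IER3 in either group. IER5L and IER5 were much lower, at 24.2 ± 4.26 and 16.1 ± 1.62 CPM per kilobase in ASO. In NC they stood at 6.53 ± 1.01 and 5.65 ± 0.41 CPM per kilobase, where their libraries overlapped, whereas in ASO the lowest IER5L library (19.3) was above the highest IER5 library (17.8). The order of the 4 genes by mean level per length was thus the same in ASO and in NC.

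The spread of IER2 between replicates stood apart from that of the other 3 genes. Its libraries deviated from their group means with an SD of 0.65 on the log2 scale, larger than for 98.9% of the 2342 genes at 100 CPM or more, whose median was 0.13. The values were 0.24 for IER5L, 0.13 for IER5 and 0.10 for IER3. In each group 1 library was low, ASO replicate 3 and NC replicate 2, at 0.48 and 0.44 of the mean of the other 2 libraries of its group.

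Among the genes at 100 CPM or more, 3.63% had their lowest ASO and lowest NC library in the same places as IER2, and 2 genes lay at least 0.5 below the group mean on the log2 scale in both libraries. Over all 14062 genes tested, 65 did. The 2 genes at 100 CPM or more were IER2 and TPD52L2, a tumour protein D52 family gene named after its values were seen. TPD52L2 stood at 306, 274 and 139 CPM in ASO and at 337, 155 and 357 CPM in NC, so the low libraries were at 0.48 and 0.45 of the others. XBP1, a transcription factor of the unfolded protein response also named after its values were seen and below 100 CPM on average, stood at 145, 137 and 69.5 CPM in ASO and at 73.4, 34.5 and 68.9 CPM in NC, with the low libraries at 0.49 and 0.49 of the others. Of the 49 other primary response genes, 6 had their lowest libraries in the same places and 0 by as much as 0.5 in both, EGR2 (-0.70 in ASO replicate 3 and -0.495 in NC replicate 2) coming nearest. STX10, the nearest neighbour of IER2, did not dip in ASO replicate 3, where it was at its highest (65.8, 66.9 and 71.8 CPM in ASO, against 54.5, 47.9 and 66.8 CPM in NC). Without these 2 libraries the log2 fold change of IER2 was 2.90, an alternative added after the values were seen. Why these libraries were low for IER2 was not tested.

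**Figure D2:**
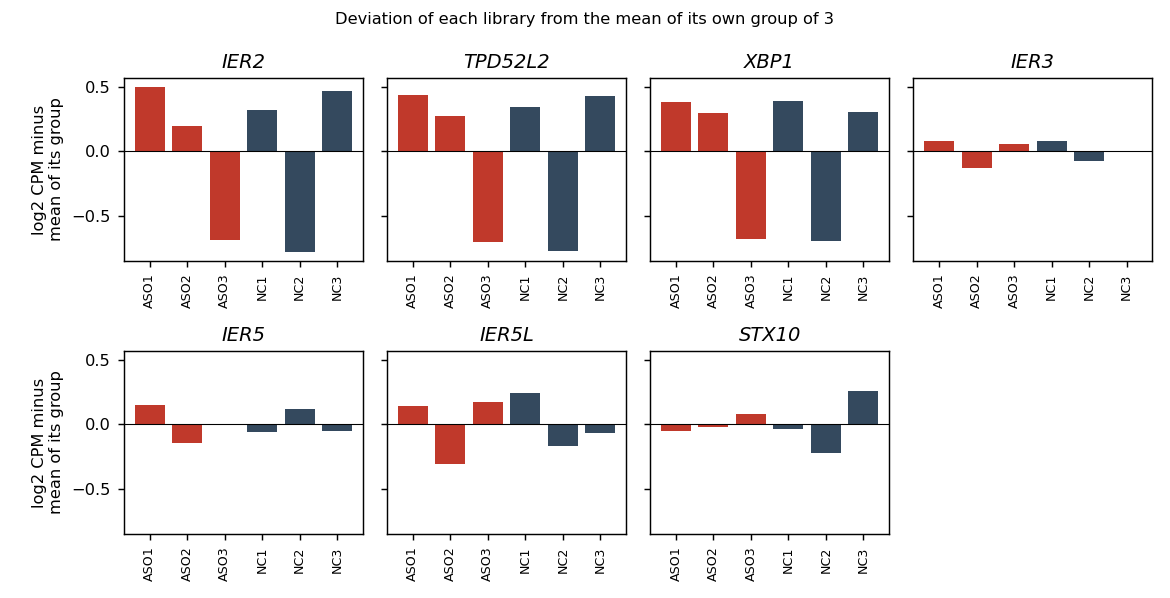
Log2 CPM of each library minus the mean of its own group of 3, for the 4 IER genes, TPD52L2, XBP1 and STX10, with ASO libraries in red and NC libraries in dark blue. IER2, TPD52L2 and XBP1 share low bars in ASO replicate 3 and NC replicate 2, between -0.68 and -0.78 on the log2 scale, and the other genes have no such bars.

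Genes whose 6 libraries ran most like those of each IER gene were found by the root-mean-square difference of their centred log2 CPM over 6 libraries, among 12891 other genes at 1 CPM or more in either group. This measure takes in the difference between ASO and NC, so genes with a like fold difference come first. For IER3 they were KDM6B, a histone H3K27 demethylase gene (177, 143 and 174 CPM in ASO, against 17.6, 16.3 and 19.3 CPM in NC, difference 0.073), HBEGF, an EGF receptor ligand gene (0.073), and ISYNA1, which makes inositol phosphate (0.075). For IER5 they were the Hippo pathway kinase gene LATS2 (138, 124 and 131 CPM in ASO, against 45.9, 51.0 and 46.1 CPM in NC, difference 0.048), ARHGEF2 (0.049) and ARHGEF28 (0.053). For IER5L they were CCDC71L (0.067), the adrenergic receptor gene ADRA1B (0.068) and CEBPB, a transcription factor of inflammatory and acute-phase responses (306, 219 and 284 CPM in ASO, against 72.3, 59.2 and 64.5 CPM in NC, difference 0.097). IER2 had no such close match. Its nearest were CHRND (0.33), PTPRH (0.34) and VWA5B2 (0.35), all at or below 18.2 CPM in every library.

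Other genes have borne an IER symbol as well. IER3IP1, an endoplasmic reticulum protein gene named for an interaction with IER3, was lower in ASO, at 1050, 950 and 945 counts against 1654, 1585 and 1452 counts in NC (19.1 ± 0.35 and 29.7 ± 1.33 CPM). The groups did not overlap, and the log2 fold change was -0.63 ± 0.11 (SE, edgeR adjusted p = 0.00306), though this call was lost after correction for GC content and length. RGS1, which was once called IER1, had 0 counts in every library.

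Genes for the phosphatase partners of the IER5 group did not pass the same test. Of 8 genes for PP2A subunits with B55, 6 were tested, and by edgeR 0 were higher and 0 lower, also at an unadjusted p under 0.05 and by DESeq2 and limma-voom. Their median log2 fold change was -0.27. With the replicate number as a block, 3 were lower, PPP2R1A (-0.26, adjusted p = 0.0139 in edgeR), PPP2R1B (-0.33, adjusted p = 0.02) and the B55 subunit gene PPP2R2A (-0.68, adjusted p = 0.0151), named after their values were seen. Without ASO replicate 2 and with no block, 2 were lower. PPP2CA, the catalytic subunit gene, averaged 174 ± 21.0 CPM in ASO and 152 ± 13.97 CPM in NC.

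Most of the chaperone genes known as targets of HSF1 were lower. Of 20 genes tested, HSF1 among them, 13 were lower in ASO and 0 were higher by edgeR, against the background of 19.1% lower and 26.8% higher, with a median log2 fold change of -0.75. By DESeq2 and by limma-voom 15 were lower and 0 higher, and at an unadjusted p under 0.05 in edgeR 16 were lower and 0 higher. Without NC replicate 2 a single gene was higher. HSP90AA1, the stress-inducible Hsp90 gene, had 44211, 72864 and 47451 counts in ASO, against 149819, 199383 and 140048 counts in NC, so that its log2 fold change came to -1.52 ± 0.22 (SE, edgeR adjusted p = 0.00111). HSPH1, a large Hsp70-like chaperone gene, averaged 60.9 ± 15.7 CPM in ASO and 147 ± 28.6 CPM in NC, so that its log2 fold change came to -1.27 ± 0.20 (edgeR adjusted p = 0.00192). The groups did not overlap for either gene. HSF1 itself averaged 122 ± 17.2 CPM in ASO and 117 ± 12.9 CPM in NC (edgeR adjusted p = 0.73). IER5, known to promote the activity of HSF1, was thus higher in the same libraries in which most of the listed chaperone genes were lower, and no link between them was tested.

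Among the regulators upstream of immediate early genes, those of NF-kB were higher. All 5 genes tested for NF-kB subunits rose in the edgeR fit, beside 26.8% of all genes tested, with a median log2 fold change of 1.81 against 0.01 over all genes tested. RELB averaged 96.9 ± 14.1 CPM in ASO and 8.99 ± 2.64 CPM in NC (10.8-fold, edgeR adjusted p = 2.86e-05), and NFKB2 averaged 292 ± 34.1 and 49.7 ± 1.19 CPM (5.89-fold, edgeR adjusted p = 2.65e-06). Without ASO replicate 3 and NC replicate 2, 3 of the 5 were higher.

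The serum response factor and its cofactors, together with the cyclic AMP factors CREB1 and CREM, went both ways, with log2 fold changes of -0.69 to 1.15. Of 8 tested, 2 were higher and 0 lower by edgeR, a share of higher genes near the 26.8% of all genes tested (19.1% were lower). The median log2 fold change was -0.02. CREM rose to 11.5 ± 3.198 CPM in ASO, against 5.19 ± 0.51 CPM in NC (2.22-fold, edgeR adjusted p = 0.00509), and SRF rose to 137 ± 11.04 CPM, against 108 ± 7.51 CPM (1.27-fold, edgeR adjusted p = 0.0241). At an unadjusted p under 0.05 in edgeR 2 were lower, by DESeq2 1 and by limma-voom 0, and with the replicate block 2 were lower, MRTFB and CREB1, named after their values were seen. The count of higher genes was 1 without ASO replicate 1 or 3 or NC replicate 2 or 3, and 1 gene was lower without ASO replicate 1 or NC replicate 1.

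Of 10 kinase genes of the ERK cascade, 4 were lower and 0 higher by edgeR, beside 19.1% lower and 26.8% higher over all genes tested (0 higher also at an unadjusted p under 0.05 and by DESeq2 and limma-voom), with a median of -0.14. RPS6KA3 and RPS6KA1, which encode kinases activated by ERK, averaged 31.6 ± 6.30 and 78.3 ± 7.86 CPM in ASO, against 53.8 ± 4.02 and 124 ± 1.096 CPM in NC (edgeR adjusted p = 0.00609 and 0.00142). Without ASO replicate 3 and NC replicate 2 together, 2 were lower.

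Among 49 other primary response genes, 48 were higher in ASO and 0 lower by edgeR, beside 26.8% higher and 19.1% lower over all genes tested, with 0 lower also at an unadjusted p under 0.05 and by DESeq2 and limma-voom. The gene not called was FOS, named after its values were seen. FOS averaged 342 ± 17.0 CPM in ASO and 304 ± 38.9 CPM in NC (edgeR adjusted p = 0.22), and its groups overlapped. The list was drawn up with results of these data known. Its median log2 fold change was 2.77, and ordered by log2 fold change within the 53 genes made up of this list and the family, IER3 was 21st, IER2 24th, IER5L 33rd and IER5 39th. The highest fitted log2 fold changes were those of EGR4, a zinc finger factor gene with 1151, 831 and 1004 counts in ASO, against 0, 0 and 8 counts in NC, and of TNFAIP3, a feedback inhibitor of NF-kB with 32242, 28243 and 28636 counts in ASO, against 232, 215 and 172 counts in NC. The NC counts of EGR4 lie under the limit of 12, so its fitted fold change and its place ahead of TNFAIP3 are not settled by these counts.

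**Figure D3:**
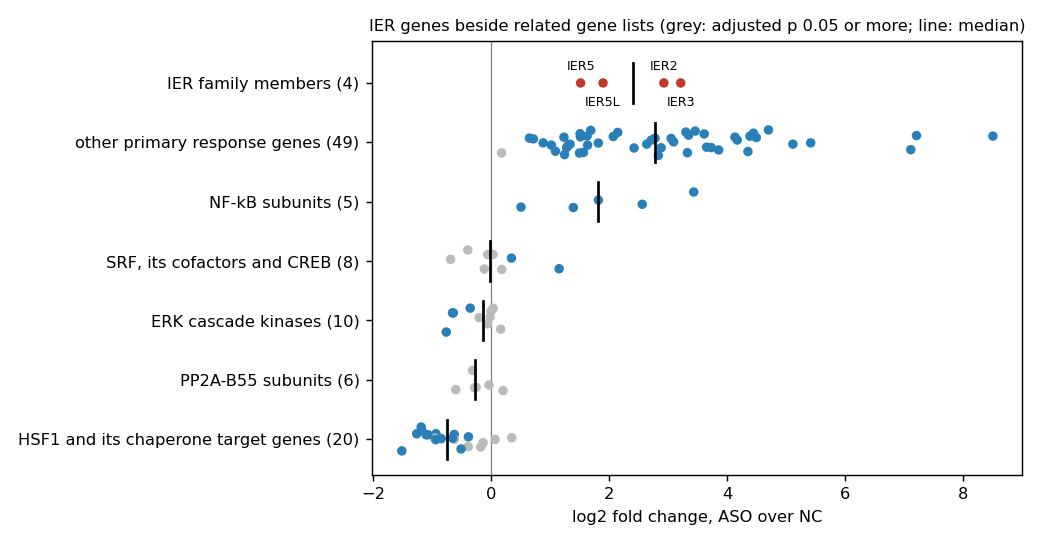
Log2 fold change, ASO over NC, of each gene tested in 7 lists, with the number of genes in brackets, grey points for genes at an adjusted p of 0.05 or more and a black line at the median. The 4 IER genes, between 1.51 and 3.21, lie within the range of the other primary response genes (median 2.77), and the median of the chaperone list lies at -0.75.

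Transcripts rich in G and C tended to be higher in ASO across the whole table, and 3 of the IER genes are rich in them. The longest transcript had a GC content of 65.0% for IER5L, 61.7% for IER2, 58.5% for IER3 and 49.8% for IER5, against a median of 49.4% over 12425 protein-coding genes at 1 CPM or more. Genes at 55% or more had a median log2 fold change of 0.20 (4052 genes) and those under 45% of -0.33 (4346 genes). Genes whose transcripts all have 1 exon, like IER5 and IER5L, had a median of 0.47, and 49.6% of these 250 genes were higher and 8% lower. Over the 12425 protein-coding genes, 24.7% were higher and 21.4% lower. The single-exon genes were also richer in GC (median 55.3%) and shorter (median 2090.5 exon bases, against 5059). Which of these traits goes with the difference was not tested. After removal of trends with GC content and exon length, the log2 fold change was 1.65 for IER5L, 1.56 for IER5, 2.78 for IER2 and 3.12 for IER3.

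**Figure D4:**
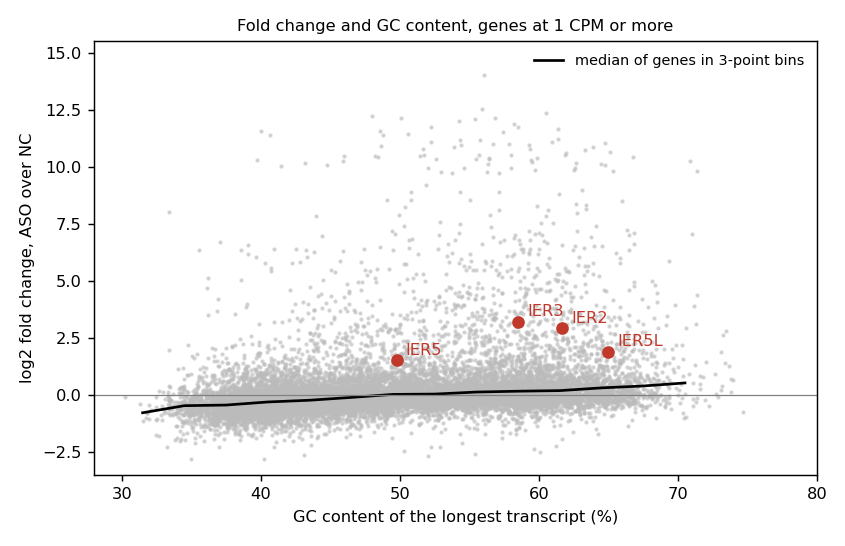
Log2 fold change, ASO over NC, against the GC content in percent of the longest transcript, for genes at 1 CPM or more (grey), with the median in bins of GC content (black line) and the IER genes in red. The median line climbs with GC content, and the IER genes, at 1.51 to 3.21, lie well above it.

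The nearest neighbours along the chromosomes did not all follow the IER genes. FLOT1, a membrane scaffold gene on the same strand that begins 512 bases beyond the 3′ end of IER3, was higher in ASO, at 46700, 35527 and 42568 counts against 12456, 12186 and 12452 counts in NC. Its means were 810 ± 86.9 CPM in ASO and 235 ± 11.4 CPM in NC (3.45-fold, edgeR adjusted p = 9.28e-06), and the groups did not overlap. DDR1, a collagen receptor gene 131873 bases away on the other side, stood at 99.3 ± 4.68 CPM in ASO and 107 ± 4.65 CPM in NC (edgeR adjusted p = 0.34).

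Next to IER2, STX10 begins 28 bases away on the opposite strand and averaged 68.2 ± 3.19 CPM in ASO and 56.4 ± 9.59 CPM in NC (edgeR adjusted p = 0.133). On its other side the calcium channel gene CACNA1A, 51531 bases away on the opposite strand, had 1384, 960 and 1033 counts in ASO, against 19, 12 and 10 counts in NC (edgeR adjusted p = 3.19e-06). The NC values lie near the limit of 12 counts. Of the genes beside IER5, MR1 averaged 14.4 ± 3.72 CPM in ASO and 13.4 ± 4.43 CPM in NC (edgeR adjusted p = 0.797), and CACNA1E had 4 counts in ASO replicate 3 and 0 in the other 5 libraries.

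IER5L lies inside the span of a gene listed only by its identifier, ENSG00000235007, on the opposite strand. That gene had 44, 27 and 39 counts in ASO, against 8, 12 and 11 counts in NC (edgeR adjusted p = 0.021), far below the counts of IER5L, which ran from 2619 to 3845 in ASO and from 843 to 1102 in NC. GENCODE 29 also places antisense transcripts over parts of IER2 and IER3, and since the sources used here give no strand setting, reads from opposite strands cannot be told apart. PTPA, which encodes an activator of PP2A, averaged 118 ± 24.2 CPM in ASO and 145 ± 12.8 CPM in NC (edgeR adjusted p = 0.152), and NTMT1 averaged 75.7 ± 3.66 and 67.9 ± 6.64 CPM (edgeR adjusted p = 0.257).

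**Figure D5:**
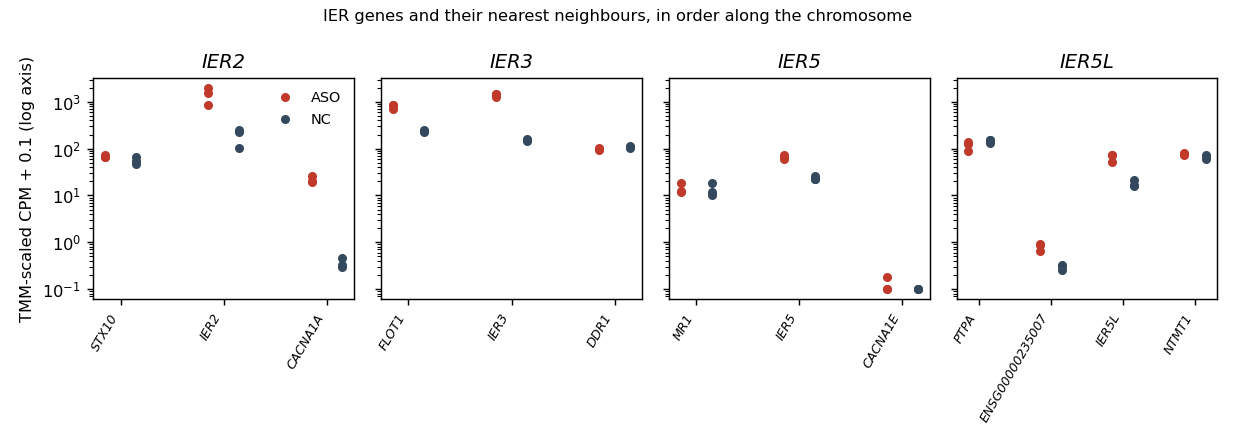
TMM-scaled CPM plus 0.1 on a log axis for each IER gene and its nearest genes in the table, in order along the chromosome, with ASO libraries in red left of NC libraries in dark blue. FLOT1 beside IER3 and CACNA1A beside IER2 are higher in ASO, while STX10, DDR1, MR1, PTPA and NTMT1 overlap between the groups.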

How the data were processed

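Gene expression was measured in 6 libraries, 3 ASO and 3 NC, grouped by their titles. The authors deposited 1 table of estimated counts per gene, with no scaling to depth. Per the submitters' processing notes the build was hg38 and the tools were FastQC, STAR, StringTie and DESeq2, with no version or role stated. The sources used here do not give the annotation, the strandedness of counting or how reads matching several genes were treated. Such estimated counts pass through transcript coverage, so the split of reads between transcripts can move a gene's value. The values were whole numbers as deposited, and rounding them changed nothing. Separate cultures for the replicates are not stated, and p-values then reflect the spread of these libraries alone, possibly a technical one. Replicates of a group differed by more than sampling noise. The chi-square per degree of freedom ran from 10.65 to 28.5 over the pairs, after division of the counts by 4 and without genes of low counts.

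Genes were kept by filterByExpr (minimum count 10, minimum total 15). ASO was compared with NC by edgeR 4.0.16 in R 4.3.3 (TMM scaling, robust quasi-likelihood fit, no block), with Benjamini-Hochberg adjustment over the 14062 genes tested and a threshold of 0.05. The fit was tested on simulated data with the same dispersion set for every gene and no replicate effects, which does not cover the replicate spread seen here. CPM values are TMM-scaled, log2 CPM used a prior count of 2, and errors are SD over 3 libraries unless SE is written. Each SE was worked back from the quasi-likelihood test, as the absolute log2 fold change over the square root of its F statistic. It thus restates that test and is no separate measure of spread. Alternatives were other scalings and filters, DESeq2 1.42.0, limma-voom (limma 3.58.1), counts divided by 4, a replicate block, removal of trends with GC content and exon length by loess (99.7% of the genes tested had both, from GENCODE 29), and leaving out each library.

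Deviations of same-numbered libraries from their group means correlated at 0.17, 0.50 and 0.14 over 9103 genes at 10 CPM or more, all over 0.1. Differently numbered pairs ran from -0.43 to 0.30, the highest being ASO replicate 1 with NC replicate 3, above 2 of the 3 same-numbered pairs. By the rule that every same-numbered pair exceed 0.1, the numbers were taken to pair the libraries. This pairing comes from the data and from the numbers in the titles. The main fit did not use it. With the replicate block in edgeR, 3924 genes were higher and 3494 lower over the whole table, against 3772 and 2692 without it.

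The members and the gene lists were chosen with earlier results of these data known. Of the list with the NF-kB subunits, 1 gene is not reported here. Genes named are the family, the 3 genes most like each member, the nearest gene on each side, all genes of lists of up to 4 genes, and in longer lists the 2 largest rises and 2 largest falls past the threshold at 1 CPM or more. EIF4A1, EPCAM, CDH1, KRT8, KRT18 and VIM are named as checks of the libraries. HSF1, PPP2CA and others marked as such fall outside it and were added with their values in view.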

Additional observations from a re-analysis of the deposited data

How the results depend on the processing

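The 4 IER genes kept their direction under all 18 alternatives, with log2 fold changes of 2.64 to 3.19 for IER2, 3.12 to 3.27 for IER3, 1.43 to 1.58 for IER5 and 1.65 to 2.03 for IER5L. The value 1.65 for IER5L, with trends of GC content and length removed, was the only 1 of these to move by more than the spread between replicates. The order of levels per length was the same with the longest transcript in place of the union of exons. With the replicate block 3 PP2A genes and 2 genes of the SRF list were lower, against 0 without it, and it moved the count of no other list compared here by over 1.5 times. DESeq2 called 1 gene of the SRF list lower. With GC content and length trends removed, with or without the replicate block, IER3IP1 was not called (0 lower), 1 PP2A gene was higher and 1 lower, 1 gene of the SRF list was lower and 1 ERK cascade kinase gene was higher. Leaving out 1 library at a time, the genes lower over the whole table ranged from 1755 to 3199, PP2A genes lower from 0 to 2, SRF list genes higher from 1 to 2 and lower from 0 to 1, and chaperone list genes higher from 0 to 1. Without ASO replicate 3 and NC replicate 2 together, added after the values were seen and leaving 2 libraries a group, 932 genes were lower over the whole table, 1 chaperone list gene and 1 gene of the SRF list were higher, 2 ERK cascade kinase genes were lower and 3 genes of the NF-kB list were higher, against 5 with all libraries. Apart from the fewer libraries or genes that an alternative leaves, the cause of these shifts was not tested. Depth limits statements on CACNA1A in NC, CACNA1E, the antisense gene over IER5L, and EGR4, LGALS4, VIL1 and KRT19 in NC, with values near or under 12 counts.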
